A study of Mus musculus with 32 samples.

Results

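Lungs of female mice exposed to cigarette smoke for 5 months were compared with lungs of female mice exposed for 3 months, with the type of surgery held fixed. The rule took every library of the surgery experiment, which is 16 of the 32 libraries of the series: 10 from 5 months and 6 from 3 months. All 16 came from female C57B/6 mice that were exposed to smoke, so no library in the comparison was from a mouse breathing room air. At 3 months there were 3 libraries from mice with sham surgery and 3 from mice with ovariectomie, the removal of the ovaries, and at 5 months there were 5 of each. RNA was taken from whole lung tissue and polyA RNA was sequenced. The labels give neither the age of the mice nor the day or hour of collection, so longer exposure, greater age and a later collection cannot be told apart. They also do not say whether the libraries of a group were from separate animals, and the p-values measure only the spread between these libraries, which may be technical.

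Prolonged inhalation of cigarette smoke injures the walls of the alveoli, the air sacs in which blood and air exchange gases, and in the disease called emphysema those walls are lost. The walls are built from thin epithelial cells, a capillary network with its pericytes, fibroblasts, and a matrix of elastin, fibrillar collagens and basement membrane, the sheet of laminin, type IV collagen and nidogen on which epithelium and endothelium rest. The comparison addresses what changes between an earlier and a later stage of such exposure, and the series as a whole is concerned with dendritic cells and monocytes of emphysematous lung.

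Total counts per library ran from 14150357 to 24497332, with 15.2 to 15.8 megacounts in sham and 14.2 to 19.0 megacounts in ovariectomie libraries at 3 months, and 14.2 to 17.9 and 14.8 to 24.5 megacounts at 5 months. The labelled tissue was checked on its markers: the summed level of 12 alveolar type 2 markers was at least 41400 CPM (counts scaled to the size of the library) at 3 months and at least 46300 CPM at 5 months. Transcripts of liver stood apart in 5 libraries, in which Alb, the gene of serum albumin, was at 502 to 1150 CPM against at most 15.4 CPM in the other 11. These 5 were ovariectomie replicates 2 and 3 at 3 months, sham replicates 1 and 2 at 5 months and ovariectomie replicate 5 at 5 months. Any fit without them keeps replicate 1 as the only ovariectomie library of 3 months. The 5 libraries separated on the first principal component, which held 28.6% of the variance and whose leading genes included Alb and Ttr. The second component held 12.2% of the variance. On it the 5 ovariectomie libraries of 5 months lay at −49.4 to −9.36 and the 11 libraries of the other groups at 1.7 to 32.6. What set that group apart was not tested. No pair of libraries agreed within sampling noise, with a chi-square per degree of freedom of at least 9.63 over the 120 pairs.

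Few genes were called between 5 and 3 months. Of 16874 genes tested, 21 (0.124%) were called by edgeR's quasi-likelihood test at an adjusted p under 0.05, 5 higher (0.0296%) and 16 lower (0.0948%). The folds of the called genes ran from 1.22 to 1.87, and 0 of them reached 2-fold. The lower genes included components of basement membrane and of type VI collagen, genes known from endothelium, and genes of chromatin and RNA processing. The higher genes were Fdft1 of cholesterol synthesis, Sms of polyamine synthesis, Rcan2, Hlf and the mitochondrial gene mt-Nd3. The median log2 fold change over all genes was −0.01, 48.2% of genes lay above 0, and 2246 had an unadjusted p under 0.05, 1116 higher (6.61%) and 1130 lower (6.7%). At an adjusted p under 0.1 there were 142 higher (0.842%) and 164 lower genes (0.972%).

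The size of difference that these libraries could show is given by the intervals. Of the 13632 genes whose average log2 CPM was 1 or more, 97.3% had a 95% interval of the fold that lay within 2-fold in either direction, and 84.9% had one within 1.5-fold. In the same 13632 genes, 22 differed by 2-fold or more without being called, with adjusted p of 0.106 or more by edgeR's test. Of those 22, 15 were variable segments of antibody genes, whose share among the 13632 was not counted. Why these segments differed was not tested.

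**Figure D1:**
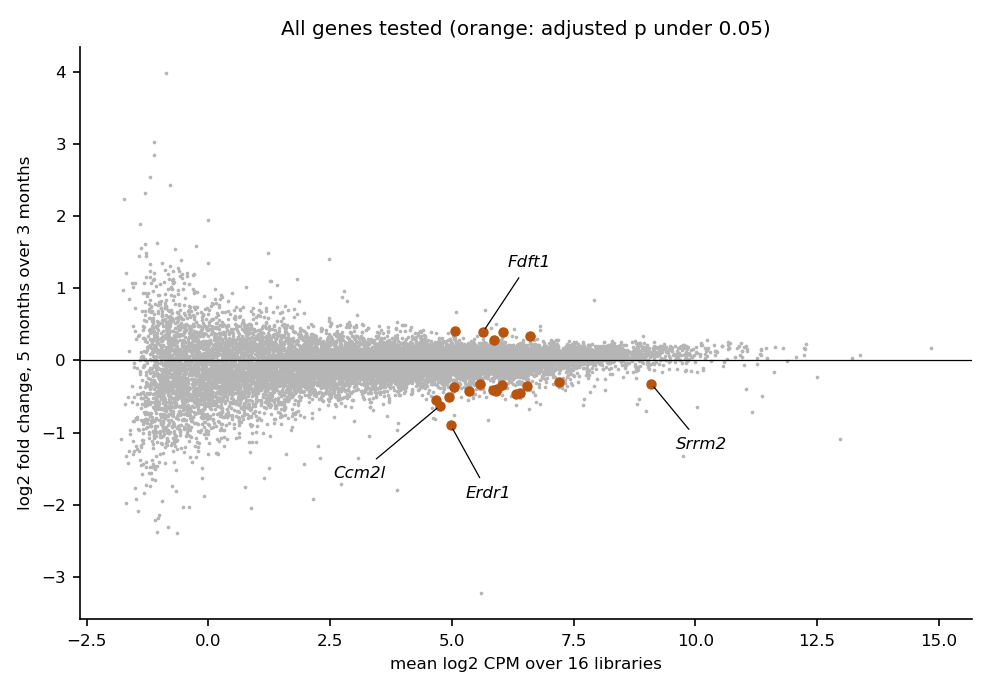
Log2 fold change of 5 months over 3 months (y axis) against mean log2 CPM over 16 libraries (x axis) for each of the 16874 genes tested. The 21 called genes (orange) have a mean of at least 25.3 CPM and lie within 1 log2 unit of 0, and 0 genes past 1 log2 unit were called.

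Among matrix genes, Nid1 and Lamb1 were called lower, and with Sms they were the 3 called genes whose 5 month and 3 month libraries did not overlap (11 of all genes, 0.0652%, had groups that did not overlap). Nid1 encodes nidogen-1, which joins laminin to type IV collagen (GRCm38 chromosome 13, 13437602 to 13512275). It was at 76.0, 71.3 and 62.7 CPM in the sham and 67.5, 66.0 and 63.0 CPM in the ovariectomie libraries at 3 months. At 5 months it was at 59.7, 49.0, 43.4, 50.3 and 56.5 CPM in sham and 45.5, 44.7, 55.4, 56.2 and 48.2 CPM in ovariectomie libraries. Every library at 5 months was thus below every library at 3 months, and the gene fell 1.33-fold (log2 fold change −0.41, SE 0.07, adjusted p = 0.0137 by edgeR's test). Lamb1, the laminin beta 1 chain (chromosome 12, 31265234 to 31329644), ran from 64.7 to 84.1 CPM with a median of 69.1 at 3 months and from 42.6 to 60.6 CPM with a median of 53.1 at 5 months. It fell 1.34-fold (log2 fold change −0.42, SE 0.07, adjusted p = 0.0137). Without sham replicate 1 of 3 months the adjusted p of both genes was 0.0502, at log2 fold changes still below 0.

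On the basement membrane list 2 of 15 tested members were called lower and 0 higher, against 0.0948% and 0.0296% of all genes tested. The list's median log2 fold change was −0.06 against −0.01 over all genes. Among chains of type IV collagen, Col4a1 was at −0.06 (SE 0.07), Col4a2 at −0.03 (SE 0.07) and Col4a3 at 0.02 (SE 0.07) in log2 fold change. The partner chains of laminin gave values on both sides of 0, with Lama2 at −0.31 (SE 0.10, adjusted p = 0.122 by edgeR's test), Lama4 at −0.17, Lamc1 at −0.04 and Lamb2 at 0.03. Nid2, the second nidogen, was at −0.11 (SE 0.10).

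Col6a3, the alpha 3 chain of the type VI collagen that forms beaded filaments around cells (chromosome 1, 90765923 to 90843971), was named after its values were seen, as were the other called genes that follow except Sms. It was at 120, 95.3 and 110 CPM in sham and 88.9, 74.0 and 87.5 CPM in ovariectomie libraries at 3 months, and at 86.3, 64.7, 66.5, 72.8 and 82.4 CPM in sham and 55.6, 66.0, 67.8, 64.1 and 63.7 CPM in ovariectomie libraries at 5 months. The libraries overlapped over both surgeries but within neither surgery. The gene fell 1.38-fold (log2 fold change −0.47, SE 0.07, adjusted p = 0.0032), and it was called in each of the 16 fits that left out 1 library. The other chains of the same collagen gave values near 0, with Col6a1 at −0.02 (SE 0.04) and Col6a2 at 0.00 (SE 0.06) in log2 fold change; the difference between chains was not tested.

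Fibrillar collagen and matrix genes lay mostly below 0 without being called. Of 17 tested members 1 was called lower (Col6a3) and 0 higher, 15 were below 0, and the median log2 fold change was −0.18. Over all genes tested 0.0948% were called lower, 48.2% lay above 0, and the median was −0.01. Type V collagen, which sits inside collagen fibrils, gave −0.35 for Col5a1 (SE 0.08, adjusted p = 0.0597) and −0.21 for Col5a2 (SE 0.06, adjusted p = 0.0969), and Col5a3, which is not on the list, gave −0.68 (SE 0.15, adjusted p = 0.0597), all by edgeR's test. Postn, the matricellular protein periostin, was at 225, 174 and 118 CPM in sham and 127, 103 and 113 CPM in ovariectomie libraries at 3 months, and from 74.1 to 118 CPM at 5 months (log2 fold change −0.60, SE 0.16, adjusted p = 0.103). Its spread at 3 months was set by the first 2 sham libraries. Tnc, tenascin-C, was at −0.62 (SE 0.20), Eln, elastin, at −0.35 (SE 0.11, adjusted p = 0.18) and Col1a1, a chain of type I collagen, at −0.26 (SE 0.13, adjusted p = 0.402). Sparc and Fn1 were above 0, at 0.17 (SE 0.07) and 0.13 (SE 0.14).

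Ccm2l, an endothelial relative of the cavernous malformation gene Ccm2 (chromosome 2, 153065955 to 153081735), had the smallest p of the comparison. It was at 37.6, 40.6 and 34.6 CPM in sham and 33.1, 28.4 and 31.5 CPM in ovariectomie libraries at 3 months. At 5 months it was at 30.9, 20.6, 26.6, 27.7 and 29.0 CPM in sham and 16.8, 18.8, 16.8, 20.3 and 18 CPM in ovariectomie libraries, so that the libraries did not overlap within either surgery. The gene fell 1.54-fold (log2 fold change −0.63, SE 0.08, adjusted p = 0.0013 by edgeR's test), and it was called in each of the 16 fits that left out 1 library. In bulk tissue, fewer cells of a type and less RNA per cell cannot be told apart.

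4 other called genes are known from endothelium, among other cells. Arap3, a regulator of small GTPases in vessel growth, ran from 84.5 to 123 CPM with a median of 100.4 at 3 months and from 50.9 to 100.3 CPM with a median of 71.4 at 5 months, and fell 1.37-fold (adjusted p = 0.0201). Lrrc32 encodes GARP, which holds latent TGF-beta on regulatory T cells, platelets and endothelium, and fell 1.46-fold, from a median of 33.2 to 21.5 CPM (adjusted p = 0.0301). Stab1, a scavenger receptor of macrophages and endothelium, fell 1.32-fold, from a median of 73.9 to 53.8 CPM (adjusted p = 0.0322). Pear1, a receptor of platelets and endothelium, fell 1.29-fold, from a median of 36.0 to 30.2 CPM (adjusted p = 0.0334). Arap3, Stab1, Lrrc32 and Pear1 were called in 12, 6, 7 and 8 of the 16 fits that left out 1 library.

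Markers of the alveolar vessels gave 0 called genes, with medians below that of all genes. General capillaries had a median log2 fold change of −0.25 over 9 tested members, of which 8 were below 0. Kit, the stem cell factor receptor, which mast cells also use, ran from 39.3 to 67.2 CPM at 3 months and from 29.4 to 46.4 CPM at 5 months (log2 fold change −0.55, SE 0.13, adjusted p = 0.0696 by edgeR's test). The list of mast cells, basophils and eosinophils had a median of 0.17 and 0 called members. Aplnr, the apelin receptor, ran from 13.3 to 22.4 CPM at 3 months and from 6.88 to 12.2 CPM at 5 months, without overlap (−0.60, SE 0.13, adjusted p = 0.0539). The capillary median was −0.10 without ovariectomie replicate 2 of 3 months and −0.11 without the 5 libraries with liver transcripts. In the latter fit replicate 1 was the only ovariectomie library of 3 months. Aerocytes, the large capillary cells through which most gas passes, had a median of −0.19, with 7 of 8 below 0 and Tbx2 at −0.37 (SE 0.09, adjusted p = 0.0672). Pericytes, which wrap the capillaries, had a median of −0.34 with 9 of 9 below 0. The pericyte list includes the matrix gene Postn, at 103 to 225 CPM at 3 months and 74.1 to 118 CPM at 5 months. Postn is thus a large part of the summed pericyte level given below, which was not computed without it. The medians within sham and within ovariectomie were −0.47 and −0.05 for pericytes, −0.25 and −0.10 for general capillaries and −0.26 and −0.19 for aerocytes, and these differences between surgeries were not tested. Summed levels still overlapped: pericyte markers added up to 313 to 507 CPM at 3 months and 240 to 324 CPM at 5 months, general capillary markers to 1310 to 1800 and 1210 to 1730 CPM, and aerocyte markers to 2340 to 2670 (median 2550) and 2280 to 3020 CPM (median 2630).

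Fdft1, squalene synthase, which makes the first committed intermediate of sterol synthesis (chromosome 14, 63145153 to 63177793), rose between the times. It was at 38.2, 47.3 and 38.4 CPM in sham and 36.8, 43.7 and 44.5 CPM in ovariectomie libraries at 3 months. At 5 months it was at 45.0, 57.3, 54.8, 55.9 and 47.9 CPM in sham and 56.5, 56.0, 55.2, 62.9 and 54.5 CPM in ovariectomie libraries, so 1 of the 10 libraries, a sham one at 45.0 CPM, lay within the 3 month range. The rise was 1.31-fold (log2 fold change 0.39, SE 0.07, adjusted p = 0.0161 by edgeR's test). Without sham replicate 1 or without ovariectomie replicate 1 of 3 months the adjusted p was 0.0647 and 0.0609.

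The cholesterol synthesis and uptake list had the highest median of the pathway lists. Of its 15 tested members 1 was called higher and 0 lower, 14 were above 0, and the median log2 fold change was 0.26 against −0.01 over all genes. Over all genes tested 0.0296% were called higher and 48.2% lay above 0. At an adjusted p under 0.1 there were 5 higher members, against 0.842% of all genes. Besides Fdft1 they included Dhcr7, the last enzyme of the pathway (0.41, SE 0.10, adjusted p = 0.0707), Idi1 of isoprenoid synthesis (0.34, SE 0.09, adjusted p = 0.0772) and Hmgcs1, an early enzyme of the pathway (0.28, SE 0.07, adjusted p = 0.0812). Fdps was at 0.34 (SE 0.10, adjusted p = 0.129) and Insig1, a sterol sensor that holds the pathway's activator back, at 0.28 (SE 0.08, adjusted p = 0.102), all by edgeR's test. The list's summed level ran from 704 to 897 CPM at 3 months and from 839 to 1060 CPM at 5 months. Its median stayed between 0.22 and 0.32 under every alternative run.

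Cholesterol genes are known to share control by SREBP transcription factors acting with NF-Y and Sp1, so the 250 bases before the start of 3 members with values on the same side of 0 are shown. They are from RefSeq on GRCm38.p6, which held an entry for 8 of the 15 list genes but none for Fdft1. Capitals mark matches, on either strand, to the sterol regulatory element TCACNCCAC, the NF-Y box CCAAT and the Sp1 box GGGCGG, none of which overlap another in these windows. The windows are chr13:119690101-119690350 (plus strand) for Hmgcs1, chr13:8885356-8885605 (plus strand) for Idi1 and chr5:28071162-28071411 (plus strand) for Insig1.
Hmgcs1: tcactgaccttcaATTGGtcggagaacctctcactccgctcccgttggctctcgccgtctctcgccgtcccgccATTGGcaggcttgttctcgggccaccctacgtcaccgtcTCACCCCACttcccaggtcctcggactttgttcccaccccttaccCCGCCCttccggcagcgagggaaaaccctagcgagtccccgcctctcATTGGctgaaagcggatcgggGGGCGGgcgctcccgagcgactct
Idi1: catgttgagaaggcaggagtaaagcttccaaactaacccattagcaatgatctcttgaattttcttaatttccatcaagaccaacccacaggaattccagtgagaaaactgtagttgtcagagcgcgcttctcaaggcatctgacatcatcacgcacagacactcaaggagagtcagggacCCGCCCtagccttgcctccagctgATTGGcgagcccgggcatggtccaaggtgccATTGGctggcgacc
Insig1: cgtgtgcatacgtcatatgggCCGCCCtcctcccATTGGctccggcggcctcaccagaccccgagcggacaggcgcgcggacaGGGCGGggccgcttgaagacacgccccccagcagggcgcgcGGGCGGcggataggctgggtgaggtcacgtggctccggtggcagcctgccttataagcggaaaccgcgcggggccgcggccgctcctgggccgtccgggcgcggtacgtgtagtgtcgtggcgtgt
The sterol element was found in a window of 1 of the 8 list genes with an entry (Hmgcs1) and in 1.05% of all 32851 windows of that length. At least 1 CCAAT was found in a window of 8 of the 8 list genes with an entry and in 33.8% of all windows, and at least 1 GGGCGG in 8 of 8 and in 32.7%. A list gene counted once if any of its windows matched, while the percentages are of single windows, so the measures differ. Dhcr7 had more than 1 window, and its window starting at 143823149 held 0 matches. A match is a description of the letters only.

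The other 4 higher genes were on different lists or on none. Sms, spermine synthase (chromosome X, 157443855 to 157492287), was at 49.1, 50.7 and 52.6 CPM in sham and 55.4, 51.8 and 49.6 CPM in ovariectomie libraries at 3 months, and at 70.6, 67.3, 60, 62.3 and 56.5 CPM in sham and 64.2, 62.5, 58.5, 62.5 and 62.9 CPM in ovariectomie libraries at 5 months. Every library at 5 months was above every library at 3 months, a 1.22-fold rise (log2 fold change 0.28, SE 0.06, adjusted p = 0.0344 by edgeR's test). It was called in 6 of the 16 fits that left out 1 library, and its adjusted p was 0.177 without the 5 libraries with liver transcripts. Rcan2, a regulator of the phosphatase calcineurin, rose 1.27-fold, from a median of 82.9 to 106.9 CPM (adjusted p = 0.0349, and 0.13 without the liver libraries). Its ovariectomie libraries were at 111 to 135 CPM and its sham libraries at 74.3 to 103 CPM at 5 months. mt-Nd3, a subunit of respiratory complex I, rose 1.33-fold, from a median of 28.1 to 36.3 CPM (adjusted p = 0.0495, and 0.132 without the liver libraries). Rcan2 and mt-Nd3 were each called in 4 of the 16 fits that left out 1 library. The other 11 tested genes of the mitochondrial genome were not called.

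Hlf, a transcription factor of the output arm of the circadian clock, rose 1.32-fold (log2 fold change 0.40, SE 0.08, adjusted p = 0.0495). It was called in 5 of the 16 fits that left out 1 library. It was at 44.6, 48.0 and 37.9 CPM in sham and 63.8, 73.7 and 63.8 CPM in ovariectomie libraries at 3 months, and at 57.2, 59.5, 73.2, 70.3 and 51.5 CPM in sham and 89.6, 71.3, 80.1, 93.4 and 75.3 CPM in ovariectomie libraries at 5 months. Dbp, a related factor of the same arm, was at 4.75, 15.6 and 5.61 CPM in sham and 33.4, 65.7 and 43.1 CPM in ovariectomie libraries at 3 months, against 12.5 to 39.7 and 38.4 to 71.2 CPM at 5 months (log2 fold change 0.67, SE 0.35, adjusted p = 0.429). The 3 sham libraries of 3 months were the lowest of the 16 for Hlf, and for Dbp they overlapped the sham libraries of 5 months. Of 11 genes of this arm 1 was called (0.124% of all genes tested were), with a median of 0.07, and Per1 was at 0.04 (SE 0.37). Of 6 genes of the opposing Bmal1 arm 0 were called, with a median of −0.14, and Arntl, which encodes Bmal1, was at −0.25 (SE 0.19). The part of the hour of collection in the rise of Hlf was not tested, since the labels give no hour.

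The other 8 lower genes belong to other functions. Pitpnm2 and Pitpnc1, which move phosphatidylinositol between membranes, fell 1.27-fold (adjusted p = 0.0137) and 1.35-fold (adjusted p = 0.0201). Nlgn2, neuroligin-2, known as an adhesion protein of inhibitory synapses, fell 1.42-fold, from a median of 40.3 to 25.6 CPM (adjusted p = 0.0162). Among genes of RNA and chromatin, Atxn2l, a stress granule protein, fell 1.23-fold (adjusted p = 0.0137), Srrm2, a scaffold of nuclear speckles where splicing factors gather, fell from a median of 639 to 502 CPM (log2 fold change −0.32, adjusted p = 0.0239), Mbd6, of the methyl-CpG-binding domain family, fell 1.26-fold (adjusted p = 0.0495) and Dot1l, a histone H3 methyltransferase, fell from a median of 57.0 to 42.6 CPM (log2 fold change −0.32, adjusted p = 0.0495). Erdr1 fell 1.87-fold, the widest of the called changes (adjusted p = 0.0344), from a median of 39.0 CPM (27.7 to 72.0) to 22.0 CPM (12.7 to 41.5). It lies in the region shared by the sex chromosomes, which the deposited table places on chromosome Y (90784738 to 90816464), and its copies are near-identical, so its counts are uncertain. Of the 16 fits that left out 1 library, Pitpnm2 and Atxn2l were each called in 15, and Nlgn2 and Pitpnc1 in 13. Srrm2 was called in 10, Dot1l and Erdr1 in 7 each and Mbd6 in 4.

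The called lower genes had a median GC content of 57.4% (46.7% to 69.4%) and a median length of 5676 bases (887 to 10106), against 45.1% and 3363 bases for the called higher genes and 49.7% and 2909 bases for all genes tested. Of the 13632 better measured genes, which are not independent, 13583 had a GC value. Across these Spearman's rho of the log2 fold change was 0.03 with GC content and −0.19 with length. With an offset for GC content and length fitted per library, 37 genes were called, 16 higher and 21 lower. Erdr1, Mbd6, mt-Nd3 and Dot1l were not called in that fit, with adjusted p of 0.0871, 0.0647, 0.125 and 0.0795, and the other 17 were. Of 8 nuclear retained long noncoding RNAs 0 were called, with a median log2 fold change of −0.32, and of 16 cytosolic ribosomal protein genes 0 were called, with a median of 0.11. Neat1, the RNA scaffold of paraspeckles, was at 2100 to 2700 CPM at 3 months, and at 5 months at 2040 to 2460 CPM in sham and 1120 to 2110 CPM in ovariectomie libraries (log2 fold change −0.40, SE 0.12, adjusted p = 0.132 by edgeR's test). Malat1, another long noncoding RNA, ran from 1800 to 4260 CPM at 3 months. At 5 months it was at 2490 to 4440 CPM in sham and 1280 to 1950 CPM in ovariectomie libraries. Its log2 fold change was 0.05 in sham and −0.98 in ovariectomie (unadjusted p of the interaction 0.0221, adjusted p 0.938, by edgeR's test). RNA quality as a part of these differences was not tested.

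**Figure D2:**
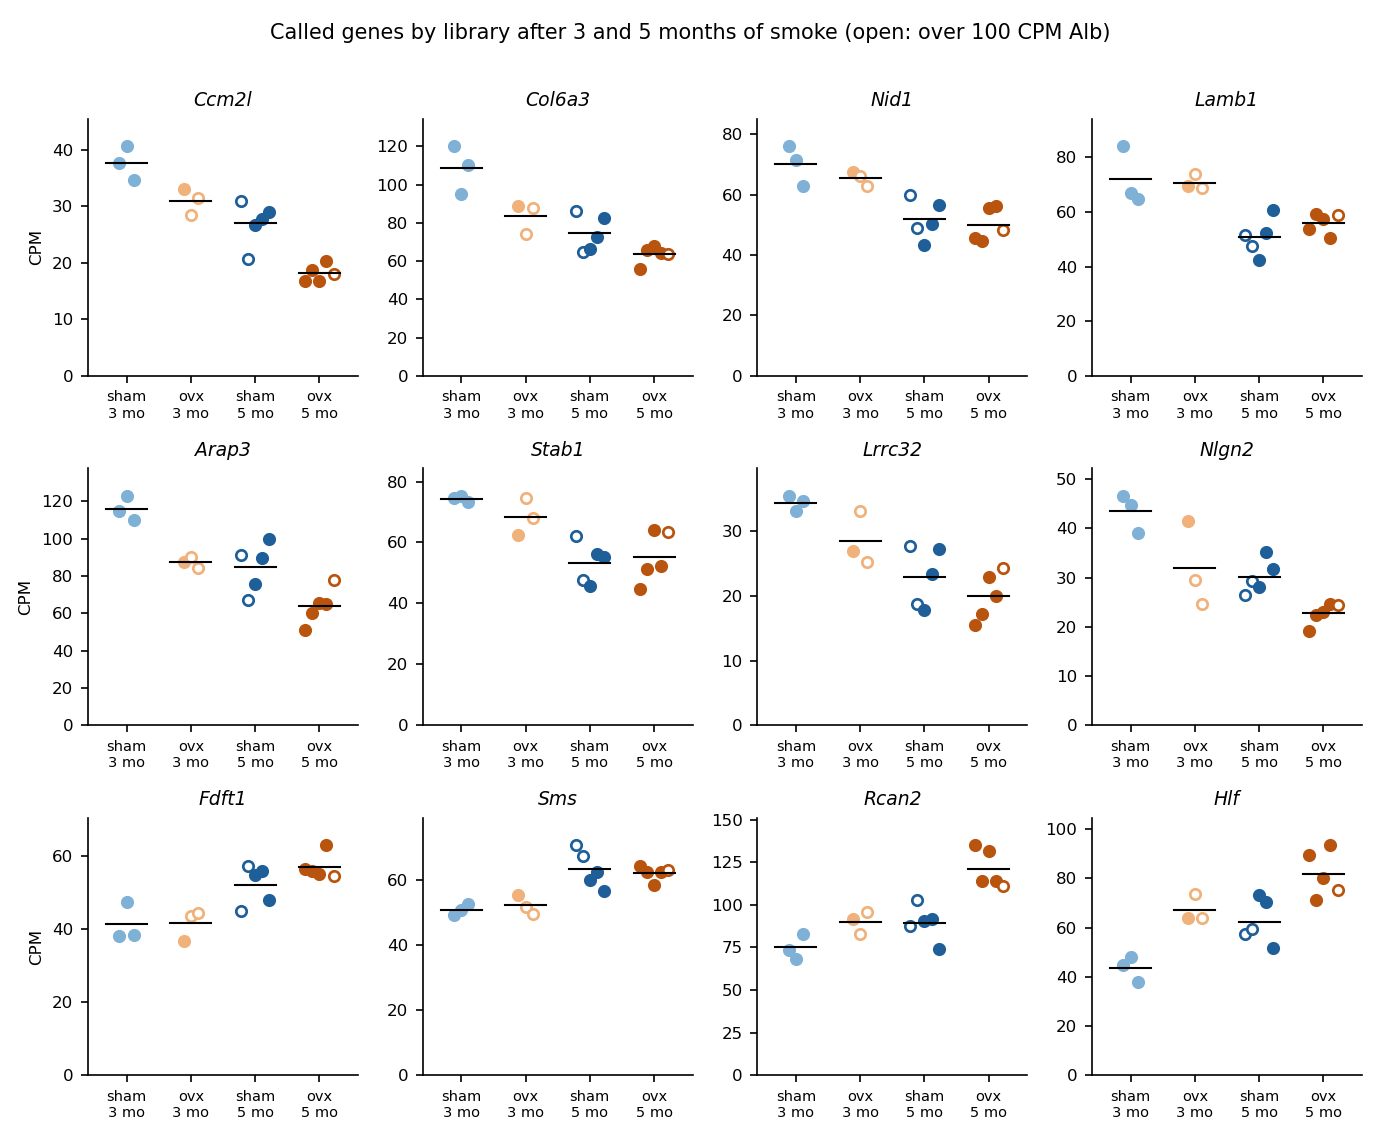
CPM (y axes, from 0) of 12 of the 21 called genes in each library of the 4 groups, with ovx for ovariectomie, mo for months and a bar at the group mean. Open circles are the 5 libraries with liver transcripts. In Nid1, Lamb1 and Sms the libraries of 5 months do not overlap those of 3 months.

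The called genes went in the same direction in both surgeries, with estimates that lay apart for some. Ccm2l was at −0.48 in sham and −0.77 in ovariectomie (unadjusted p of the interaction 0.0842 by edgeR's test). All 21 had the same sign in sham and in ovariectomie libraries, with an unadjusted p under 0.05 in each, and 17 had libraries that did not overlap within sham (7.16% of all genes tested), 18 within ovariectomie (5.54%) and 14 within both in the same direction (0.599%). These genes were called from the same libraries, so the counts describe them and are no separate support. Log2 fold changes ran in size from 0.25 to 0.79 in sham and from 0.25 to 1.02 in ovariectomie libraries. The nearest to a difference between surgeries was Pitpnc1, at −0.58 in sham and −0.27 in ovariectomie (unadjusted p of the interaction 0.0524 by edgeR's test), and the farthest Arap3, at −0.45 in both (unadjusted p 0.998).

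**Figure D3:**
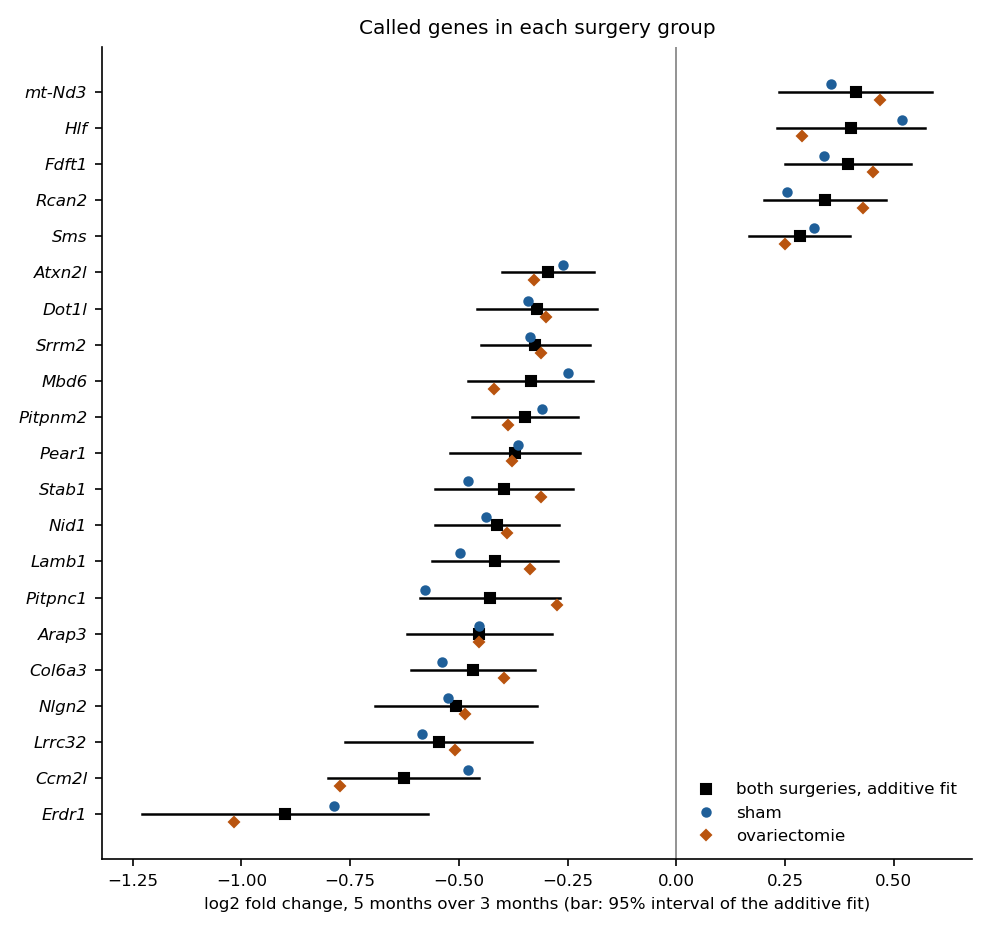
Log2 fold change of 5 months over 3 months (x axis) for the 21 called genes: black squares with 95% intervals are the fit over both surgeries, blue circles sham and orange diamonds ovariectomie. All 42 single-surgery values lie on the same side of 0 as the squares.

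Within a single surgery few genes were called. In sham 1 gene (0.00593%) was called: Gucy1b3, which encodes part of the guanylate cyclase that senses nitric oxide in pericytes and smooth muscle. It was at 77.5, 59.2 and 50.5 CPM at 3 months and at 41.5, 31.1, 30.2, 38.9 and 41.2 CPM at 5 months (log2 fold change −0.77, adjusted p = 0.024 by edgeR's test), and in ovariectomie libraries its log2 fold change was −0.25. In ovariectomie 3 genes (0.0178%) were called, all lower: Ccm2l (−0.77), Cdk2ap1, a cell cycle gene (−0.87), and Fbrsl1 (−0.48). Cdk2ap1 was at 41.3, 34.5 and 36.9 CPM at 3 months and at 23.2, 23.9, 19.1, 20.8 and 15.5 CPM at 5 months in ovariectomie libraries, while its sham libraries overlapped (31.5 to 38.4 CPM and 27.3 to 34.6 CPM, log2 fold change −0.18). The difference of the time effect between surgeries was itself tested over all genes, and 0 were called by edgeR (smallest adjusted p 0.938), 844 at an unadjusted p under 0.05, 0 by limma and 16 by DESeq2. The interaction of Cdk2ap1 had an unadjusted p of 0.000524 and an adjusted p of 0.938.

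These counts varied with the libraries in the fit. Over both surgeries, the 21 calls became 5, 7 and 7 without sham replicate 1, sham replicate 2 or ovariectomie replicate 1 of 3 months, 10, 10 and 11 without sham replicate 2, sham replicate 4 or ovariectomie replicate 2 of 5 months, and 42 without ovariectomie replicate 2 of 3 months. They became 51, 84 and 123 without sham replicate 5, ovariectomie replicate 5 or sham replicate 1 of 5 months. Without the 5 libraries with liver transcripts 85 genes were called, 32 higher and 53 lower, among them 15 of the 21. The 6 not called there were Pear1 (adjusted p = 0.0761), Erdr1 (0.0848), Mbd6 (0.0761), Sms, Rcan2 and mt-Nd3. That fit had replicate 1 as its only ovariectomie library of 3 months, so its calls rest partly on 1 library. Without the surgery term 0 were called by edgeR, with 1789 at an unadjusted p under 0.05. None of the 21 changed direction in any of the 28 alternatives run. In sham the count of 1 became 0 without sham replicate 1 or 2 of 3 months, sham replicate 2, 3 or 4 or ovariectomie replicate 2, 3 or 4 of 5 months. It became 14 without sham replicate 3 of 3 months, 13 without sham replicate 5, 2 without sham replicate 1, 3 without ovariectomie replicate 1 and 5 without ovariectomie replicate 5 of 5 months, and 3 without ovariectomie replicate 2 of 3 months. In ovariectomie the count of 3 became 0 without ovariectomie replicate 1 of 3 months and 6 without ovariectomie replicate 5 of 5 months.

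**Figure D4:**
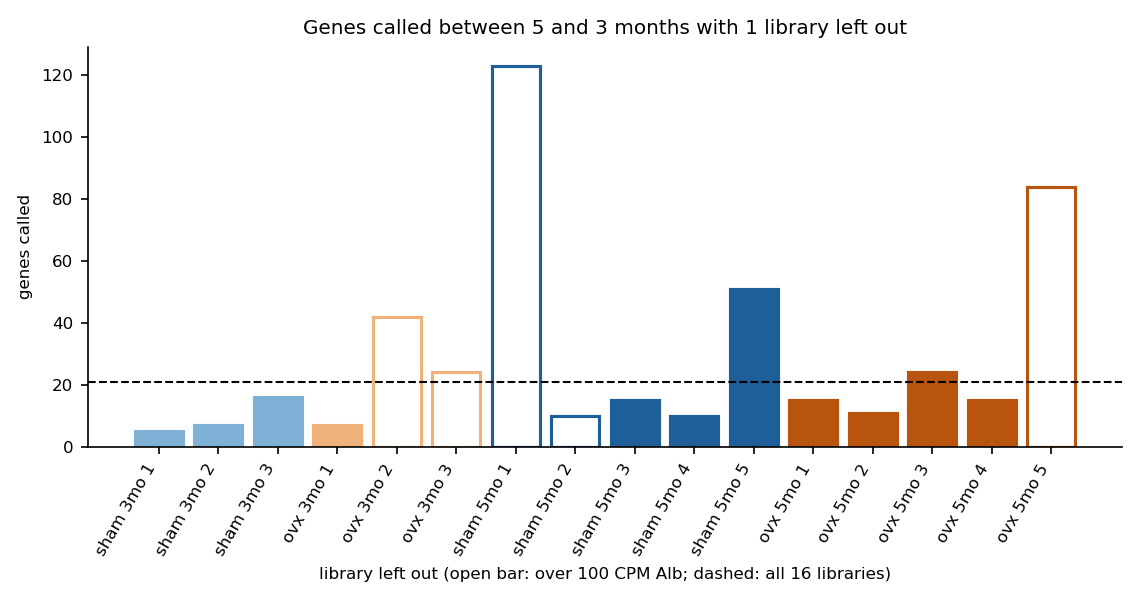
Genes called between 5 and 3 months (y axis) when the library named on the x axis is left out, with ovx for ovariectomie and mo for months. The dashed line is the 21 genes called with all 16 libraries, and the bars run from 5 to 123, with 2 of the tallest 3 from libraries with liver transcripts (open bars).

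Dendritic cells and monocytes, the cells the series is about, showed 0 called markers. Of type 1 conventional dendritic cells 10 markers were tested (median log2 fold change −0.13), with Xcr1, the chemokine receptor that marks them, at 2.68 to 4.52 CPM at 3 months and 1.43 to 4.44 CPM at 5 months (−0.35, SE 0.24, adjusted p = 0.569 by edgeR's test) and Clec9a at −0.39 (SE 0.11, adjusted p = 0.106). Cadm1, an adhesion gene also used by epithelium, was at 0.21 (SE 0.06, adjusted p = 0.0967). Type 2 conventional dendritic cells (8 markers) had a median of −0.14, with Flt3, the receptor their precursors need, at −0.29 (SE 0.21). Mature migratory cells (11 markers) had a median of −0.07, with the chemokine gene Ccl22 at 8.44 to 14.1 and 8.15 to 18.5 CPM (0.11, SE 0.14), and plasmacytoid cells (8 markers) a median of −0.05. Classical monocytes (10 markers) had a median of −0.14, with Ccr2, the receptor that brings them from the marrow, at 34.2 to 65.4 and 30.6 to 54.5 CPM (−0.15, SE 0.15) and Ly6c2 at −0.25 (SE 0.12). Nonclassical monocytes (10 markers) had a median of −0.06.

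Lymphocyte, plasma cell and red cell genes also had 0 called members, with list medians from −0.56 to −0.10. B cells had the median of −0.10, with 8 of 10 below 0. T cells had a median of −0.28, with 13 of 13 below 0 and Cd3d, a part of the T cell receptor complex, at −0.44 (SE 0.19, adjusted p = 0.3). NK and cytotoxic cells had a median of −0.35, with Gzmb at −0.70 (SE 0.31), and regulatory T cells one of −0.33. Plasma cells had a median of −0.44, with Igj, the joining chain of secreted antibodies, at −0.53 (SE 0.22, adjusted p = 0.314) and Igkc at −0.71 (SE 0.27). Erythroid genes had a median of −0.56, and Hbb-bs, a beta globin, ran from 2410 to 3370 CPM at 3 months and from 854 to 2770 CPM at 5 months (−0.71, SE 0.25, adjusted p = 0.227). Hba-a2, whose near-identical copy Hba-a1 makes its counts uncertain, was at −0.62 (SE 0.32). The standard errors of these genes were wider than the median of 0.11 over all genes tested. The summed level of T cell markers overlapped between the times, at 61.6 to 102 CPM and 48.8 to 95.3 CPM.

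Epithelial lists had 0 called members, with medians on both sides of 0. Alveolar type 1 cells, the thin cells of the gas-exchange surface, had a median of 0.18, with 10 of 12 above 0. Pdpn was at 275 to 359 CPM at 3 months and 305 to 469 CPM at 5 months (0.25, SE 0.06, adjusted p = 0.0672), Ager at 0.23 (SE 0.07, adjusted p = 0.116) and Igfbp2 at 0.24 (SE 0.11, adjusted p = 0.368), by edgeR's test. Alveolar type 2 cells, which make surfactant, had a median of 0.11, with 12 of 12 above 0 and the surfactant gene Sftpc at 0.18 (SE 0.05, adjusted p = 0.126). Ciliated cells of the airway had a median of −0.09, with 9 of 11 below 0, and basal and squamous epithelium had 2 of 4 tested members below 0. Club cells of the airway had a median of 0.11, with summed levels of 7720 to 12300 CPM (median 10800) at 3 months and 7360 to 13700 CPM (median 9300) at 5 months, and their secretory protein gene Scgb1a1 was at −0.23 (SE 0.21). Nuclear-encoded genes of the respiratory chain had a median of 0.11, with Cox4i1 at 0.25 (SE 0.07, adjusted p = 0.0884) and Atp5b at 0.18 (SE 0.05, adjusted p = 0.0767).

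**Figure D5:**
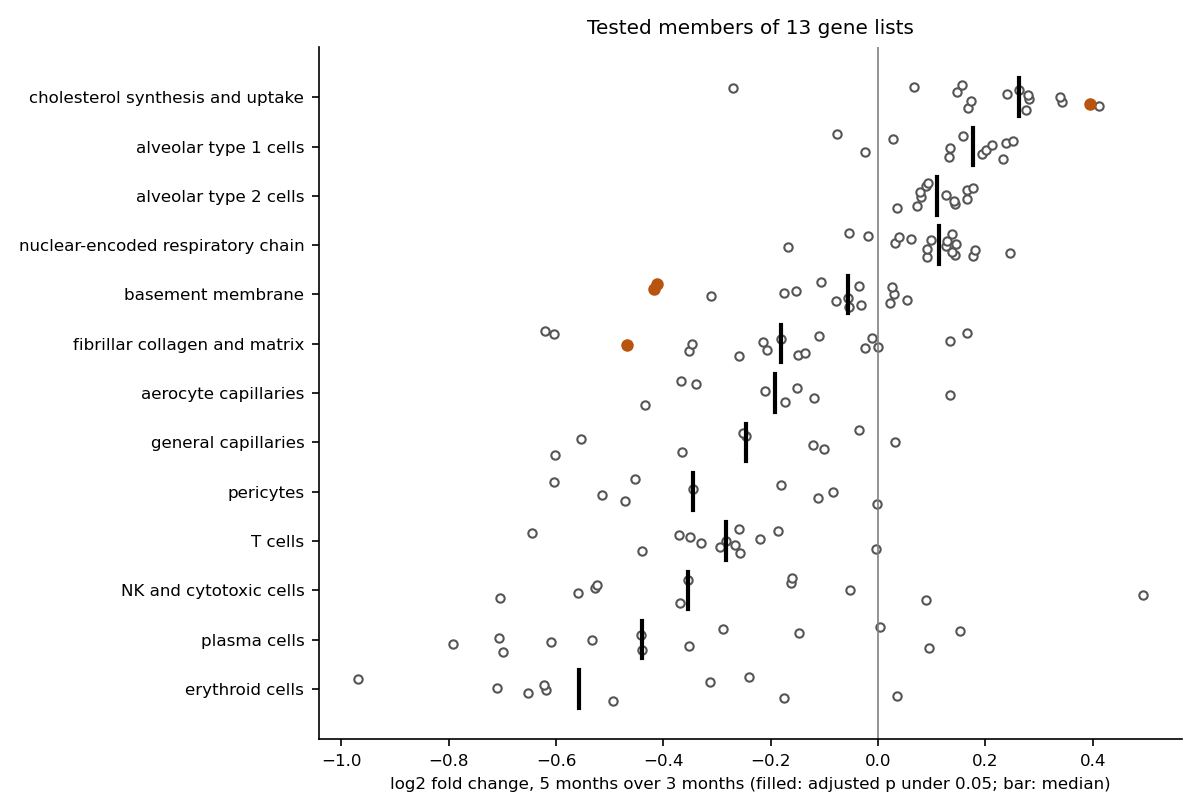
Log2 fold change of 5 months over 3 months (x axis) for each tested member of 13 gene lists (y axis), with a black bar at the list's median and called genes filled. Cholesterol and alveolar epithelial members lie mostly right of 0, and vascular, T cell, NK cell, plasma cell and erythroid members mostly left of it. The called ones are Fdft1, Nid1, Lamb1 and Col6a3.

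Genes known to respond to smoke, to oxidants or to macrophage load were not called, all by edgeR's test. Cyp1a1, the detoxifying enzyme driven by the aryl hydrocarbon receptor, was at 70.3 CPM in ovariectomie replicate 2 of 3 months and at no more than 12.3 CPM in the other 15 libraries, which gave a log2 fold change of −1.35 with an SE of 0.66 (adjusted p = 0.405). Cyp1b1 was at −0.06 (SE 0.12), and Nqo1, a target of the oxidant sensor NRF2, at −0.24 (SE 0.17). The 15 tested NRF2 targets had a median of 0.00. Among genes of lipid-laden macrophages, Spp1, osteopontin, ran from 71.2 to 142 CPM at 3 months and from 52.7 to 119 CPM at 5 months (−0.52, SE 0.16, adjusted p = 0.161), and Gpnmb had an adjusted p of 0.969. The macrophage elastase gene Mmp12 was at −0.22 (SE 0.21), Cxcl13 had an adjusted p of 0.989, and the neutrophil gene S100a8 one of 0.872. Scd1, a fatty acid desaturase, was at −0.16 (SE 0.15), the estrogen receptor gene Esr1 at −0.15 (SE 0.15), Cdkn1a, a p53 target, had an adjusted p of 0.956 and the proliferation marker Mki67 one of 0.826. Over all 74 lists, 69 had 0 called members.

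The 21 genes were set beside the separate comparison of female mice after 5 months of smoke with females in room air, in 5 and 3 libraries that are not among the 16. That comparison called 1259 of 16361 genes (7.7%), and 6 of the 21 were among them. Col6a3 (−0.58, SE 0.14, adjusted p = 0.0176), Nid1 (−0.55, SE 0.13, adjusted p = 0.017), Lamb1 (−0.60, SE 0.10, adjusted p = 0.000528) and Pear1 (−0.37, SE 0.09, adjusted p = 0.0173) were lower in smoke than in air and lower at 5 than at 3 months. Rcan2 was higher in both (0.54, SE 0.13, adjusted p = 0.0158 in smoke). Hlf was lower in smoke than in air (−0.66, SE 0.17, adjusted p = 0.023) and higher at 5 than at 3 months. Fdft1 was at −0.23 (SE 0.09, adjusted p = 0.133) in smoke against air, and Ccm2l at −0.41 (SE 0.17, adjusted p = 0.168). Of the 16 genes lower at 5 months, 14 had values below 0 in smoke against air, and of the 5 higher, 3 had values above 0. The shares of all 16361 genes below and above 0 in smoke against air were not counted, so these counts only describe the genes. This set of values was added after the data were seen, and no test of the overlap was made.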

How the data were processed

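Whole lung polyA RNA was sequenced from 16 female smoke-exposed libraries, which the labels place in 4 groups by surgery and exposure time. The authors deposited a table of raw read counts for 35275 genes and a table of length-scaled expression (TPM) for 35186 genes. 100% of the deposited TPM values were equal, within 1e-06, to those recomputed from the counts and gene lengths. FastQC, GRCm38 and mm10 are named in the submitters' processing notes. The aligner and counter were not given in the sources used here. As deposited, 27 gene symbols had been turned into dates.

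Counts were filtered with filterByExpr and scaled with TMM, and time was tested with surgery as a covariate by the robust quasi-likelihood test of edgeR 4.0.16 in R 4.3.3. P-values were adjusted by Benjamini and Hochberg over all genes, and genes with an adjusted p under 0.05 were called. CPM values used TMM-scaled totals. Alternatives used DESeq2 1.42.0 and limma 3.58.1, the latter on log2(TPM + 1). On data simulated from these libraries (16565 genes), 48% of changed genes were recovered at the smallest fold simulated, which was below 1.5-fold and near those of many called genes, and 94% at 1.5-fold, with 8 false calls. The changed genes, 50 at each fold, were taken only from genes with higher counts. All simulated libraries shared a single average profile, without surgery or liver differences. The shares thus do not hold for all genes tested or for the full design. Text genes were, by rule, called genes whose times did not overlap (Nid1, Lamb1, Sms), called members of lists with at least 2 of them, and a panel, 31 tested genes in all. Other genes were named after their values were seen, and some list members are not reported here. Members, lists and panel were chosen with earlier results of these data known.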

Additional observations from a re-analysis of the deposited data

Results flagged for a closer look

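In 8 of 138 groups of 5 libraries, over 69 genes (5.8%), the highest or lowest library lay farther from the nearest other than Dixon's critical value allows. Chance flags about 1 in 20 groups. Fdft1 was at 62.9 CPM in ovariectomie replicate 4 of 5 months, with the next library at 56.5 CPM. Kit was at 46.4 CPM in sham replicate 5 of 5 months, with the next at 33.5 CPM. Igj was at 527 CPM in ovariectomie replicate 2 of 5 months, with the next at 334 CPM. In sham libraries of 5 months, Cyp1b1 was lowest at 8.38 CPM in replicate 4, with the next at 10 CPM, and Gpnmb was highest at 50.2 CPM in replicate 3, with the next at 19.0 CPM. Ovariectomie replicate 5 of 5 months was the highest of its group in 3 genes: Alb at 1110 CPM against 15.4 CPM, Cyp1a1 at 12.3 CPM against 5.01 CPM and Cxcl13 at 28.7 CPM against 15.1 CPM.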

How the results depend on the processing

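Between 5 and 3 months, the 21 calls (5 higher, 16 lower) became 71 with no filter on low counts, 12 without robust estimation, 0 without the surgery term, 52 (16 higher, 36 lower) with all 32 libraries in the fit, 453 (234 higher, 219 lower) with DESeq2 and 9 (0 higher, 9 lower) with limma. They became 85 (32 higher, 53 lower) without the libraries with liver transcripts and 37 (16 higher, 21 lower) with the GC and length offset, both added after the data were seen. In sham, the 1 call became 10 with no filter, 0 with only the 2 groups compared, 104 with DESeq2, 0 with limma, 2 without the liver libraries and 3 with the offset. In ovariectomie, the 3 calls became 5 with no filter and 75 with DESeq2. Without the liver libraries replicate 1 is the only ovariectomie library of 3 months, so no count is given for that comparison. The 85 calls over both surgeries rest partly on that library. The interaction's 0 calls became 16 with DESeq2. Leaving out 1 library at a time gave 5 to 123 calls over both surgeries, 0 to 14 in sham, 0 to 6 in ovariectomie and 0 to 0 for the interaction. The cause of these changes was not tested. With the replicate number as a block the counts were 69, 18, 9 and 0. Deviations of 20 same-numbered pairs correlated at −0.54 to 0.33, with 4 over 0.1. These values cannot decide whether the numbers pair the libraries, since some of the pairs differ in liver transcripts and others share them. The median of the liver list changed sign, from 0.38 to −0.30 without the surgery term, to −0.08, −0.08 and −0.08 without sham replicate 1, 2 or 3 of 3 months, and to −1.98 without ovariectomie replicate 5 of 5 months (range −1.98 to 1.61 with 1 library left out, and up to 2.36 over all alternatives). Of the 21 genes 0 changed direction, 2 (Ccm2l and Col6a3) were called in each fit that left out 1 library, and 0 were called without the surgery term. The size of the groups of 3 libraries limits the precision.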
